A study of Mus musculus with 12 samples.

Results

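The 10 genes described here encode secreted and mucosal defence products of the conducting airway: the secretoglobins Scgb1a1, Scgb3a1 and Scgb3a2, the club cell enzyme Cyp2f2, the gel-forming mucins Muc5b and Muc5ac, the BPI-fold proteins Bpifa1 and Bpifb1, the immunoglobulin receptor Pigr and the lectin Reg3g. They were taken by symbol from a count table of 52550 genes, and all 10 had a single entry there. The table came from bulk RNA sequencing of 12 whole lungs of C57Bl/6J mice at P5 (postnatal day 5), with 1 mouse per library and 3 libraries in each of 4 groups. WT (Adm+/+) pups and Adm+/- pups, which carry 1 functional copy of the adrenomedullin gene Adm in every cell, received intraperitoneal Escherichia coli O55:B5 LPS (6 mg/kg) or PBS on each of P3, P4 and P5. Lungs were taken 6 h after the third dose. The Adm+/- line was moved by backcrossing from 129/SvEv to C57BL/6J. The question was how LPS given to the whole animal altered these airway genes and whether the loss of 1 Adm copy altered that response. The groups are named WT PBS (libraries 3, 4 and 5), WT LPS (9, 10 and 11), Adm+/- PBS (6, 7 and 8) and Adm+/- LPS (1, 2 and 12), numbered as in the sample labels.

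The surface of the conducting airway is lined by ciliated cells and by secretory cells, mainly club and goblet cells. Club cells release secretoglobins and carry out much of the lung's xenobiotic metabolism, and goblet cells and glands supply the mucins that form the mucus gel moved by cilia. Antimicrobial lectins, lipid-binding BPI-fold proteins and IgA carried across the epithelium by the product of Pigr add an innate and an adaptive layer to this barrier. Whole lung mixes airway with a far larger mass of alveolar tissue, so in these bulk libraries fewer cells of a type and less RNA per cell cannot be told apart.

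Pigr rose under LPS in both genotypes, 7.09-fold in WT and 28.0-fold in Adm+/- mice, and its libraries in the 4 groups overlapped only between the PBS groups. Besides Pigr, Cyp2f2 rose in WT mice (1.73-fold) and Bpifb1 rose in Adm+/- mice (7.82-fold), and no other member passed the test in either genotype (2 of 10 in each, where 17.6% of all tested genes passed in WT and 25.0% in Adm+/- mice). Scgb3a1, Muc5b, Muc5ac, Bpifa1, Bpifb1 and Reg3g differed between mice of the same group by up to 49.5-fold among nonzero values, and in all 4 groups they ranked the 3 mice in the same order. No member passed the test between the genotypes or for a difference between genotypes in the LPS response.

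Total counts per library lay between 22382535 and 38062873. Protein-coding genes held 77.8% of the counts in WT PBS 5 and 80.1% in Adm+/- PBS 6, against 84.3% to 87.6% in the other libraries. For several members the values without both are given as well. Adm itself averaged 5.21 CPM ± 1.66 (SD, n = 3) in WT PBS, 6.79 ± 2.03 in WT LPS, 3.69 ± 0.855 in Adm+/- PBS and 4.65 ± 1.42 in Adm+/- LPS, and WT and Adm+/- ranges overlapped under PBS and under LPS. Its log2 fold change in Adm+/- mice was -0.5 ± 0.32 (SE) under PBS (adjusted p = 0.999) and -0.55 ± 0.31 under LPS (adjusted p = 0.479, edgeR quasi-likelihood test), so the reduced gene dose did not pass the test at the RNA level. Among lung cell markers, the type II pneumocyte list summed to between 14072.5 and 17776.2 CPM in all 12 libraries. Markers of some other tissues were less even. Skeletal muscle genes summed to 986.7 to 2386.2 CPM in WT LPS and to at most 62.3 CPM in the other groups. Squamous epithelium genes summed to 69.4 to 3210.9 CPM in WT LPS and to at most 106.8 CPM in the other groups. The part of such tissue in the WT LPS values was not tested.

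CPM values are read counts scaled to a common library size with TMM factors. A gene was past the threshold at an adjusted p below 0.05 (Benjamini-Hochberg over 15885 tested protein-coding genes) with an absolute log2 fold change above 0.5, and "rose" and "fell" are used only for such genes. All 10 members passed the filter on low counts and were tested.

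Promoter windows of 300 bases (250 before to 50 after the start, RefSeq on GRCm38.p6, which is mm10) were held for 6 of the 10 members. The windows of Pigr, the member that rose in both genotypes, and of 4 of the genes that ranked the mice alike are shown. Capitals mark matches, on either strand, to a STAT motif TTCNNNGAA, the NKX2-1 core CTCAAG or a TATA box TATAAA. The Pigr window lies at chr1:130826434-130826733, that of Scgb3a1 at chr11:49663345-49663644, that of Bpifa1 at chr2:154142630-154142929 and that of a second Bpifb1 start at chr2:154200130-154200429, all on the + strand, and that of Reg3g at chr6:78468825-78469124 on the - strand.
Pigr: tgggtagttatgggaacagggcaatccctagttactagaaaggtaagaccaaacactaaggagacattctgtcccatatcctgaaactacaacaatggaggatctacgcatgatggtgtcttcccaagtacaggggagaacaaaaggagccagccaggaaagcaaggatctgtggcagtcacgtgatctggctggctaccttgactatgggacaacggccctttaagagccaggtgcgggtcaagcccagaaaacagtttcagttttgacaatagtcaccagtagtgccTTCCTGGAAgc
Scgb3a1: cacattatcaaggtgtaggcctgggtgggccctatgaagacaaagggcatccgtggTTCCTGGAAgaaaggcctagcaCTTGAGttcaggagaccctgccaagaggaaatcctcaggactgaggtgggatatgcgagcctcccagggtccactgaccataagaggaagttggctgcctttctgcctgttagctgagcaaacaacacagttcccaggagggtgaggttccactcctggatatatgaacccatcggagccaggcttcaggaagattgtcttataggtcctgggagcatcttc
Bpifa1: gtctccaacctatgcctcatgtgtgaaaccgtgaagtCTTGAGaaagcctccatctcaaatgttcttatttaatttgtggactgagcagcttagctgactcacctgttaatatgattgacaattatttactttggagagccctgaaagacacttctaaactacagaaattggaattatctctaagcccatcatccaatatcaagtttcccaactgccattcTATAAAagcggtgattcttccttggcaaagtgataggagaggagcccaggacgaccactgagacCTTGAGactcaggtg
Bpifb1: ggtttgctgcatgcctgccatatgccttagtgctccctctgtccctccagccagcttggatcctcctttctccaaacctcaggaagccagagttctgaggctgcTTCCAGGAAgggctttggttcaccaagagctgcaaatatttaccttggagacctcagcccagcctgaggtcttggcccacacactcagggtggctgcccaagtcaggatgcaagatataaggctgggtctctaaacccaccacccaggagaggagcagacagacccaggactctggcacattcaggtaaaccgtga
Reg3g: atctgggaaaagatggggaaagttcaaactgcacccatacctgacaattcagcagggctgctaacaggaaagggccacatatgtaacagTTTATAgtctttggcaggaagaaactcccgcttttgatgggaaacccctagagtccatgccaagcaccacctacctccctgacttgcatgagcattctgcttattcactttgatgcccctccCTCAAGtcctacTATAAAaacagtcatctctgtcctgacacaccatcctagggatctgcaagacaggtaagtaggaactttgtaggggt

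In the windows shown, the STAT motif was found in Pigr (base 290 of the printed sequence), Scgb3a1 (base 57) and the second window of Bpifb1 (base 105). The Bpifb1 window at the annotated gene start is not shown, as it held none of these 3 motifs. Of 32851 windows of all genes, 8.3% held it, and it reads the same on both strands. The NKX2-1 core stood in Scgb3a1, Bpifa1 and Reg3g, and 15.9% of all windows held it. Bpifa1 held a TATA box at base 222 and Reg3g held matches at bases 90 (reverse strand) and 224, and 13.6% of all windows held at least 1. A C/EBP pattern, TTGCNNAA (10.8% of windows), and a forkhead pattern, TGTTTAC (3.65%), had no match in the members' windows. A degenerate NF-kappa B pattern, not marked in the sequences, matched 50.8% of all windows, among them those of Cyp2f2, Pigr, Reg3g and Scgb3a1 and the first of Bpifb1. These matches describe letters in the windows and show nothing of binding.

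Per kb of exon, Scgb1a1 was the most abundant member, at 2977.7 CPM per kb averaged over the 12 libraries. Scgb3a2 followed at 434.0, Cyp2f2 at 104.7 and Scgb3a1 at 71.6 CPM per kb. Reg3g (10.6), Bpifb1 (7.04) and Muc5b (4.59) lay lower, and Bpifa1 (2.31), Pigr (2.2) and Muc5ac (0.51) were the least abundant per kb. That order is one of means over all groups, and Pigr changed places with treatment. It averaged 0.326 CPM per kb in WT PBS and 0.207 in Adm+/- PBS, below Muc5ac (0.624 and 0.427), and 6.02 CPM per kb in Adm+/- LPS, above Bpifa1 (3.79) and below Muc5b (7.06). Together the 10 genes took between 1057.3 CPM (Adm+/- PBS 6) and 3110.8 CPM (Adm+/- LPS 12), and Scgb1a1 made up between 44.8% (WT PBS 5) and 77.1% (WT PBS 4) of that sum. Fold changes for Pigr therefore started from 10 to 45 reads per PBS library, and those for Scgb1a1 from 8525 to 38819.

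**Figure D1:**
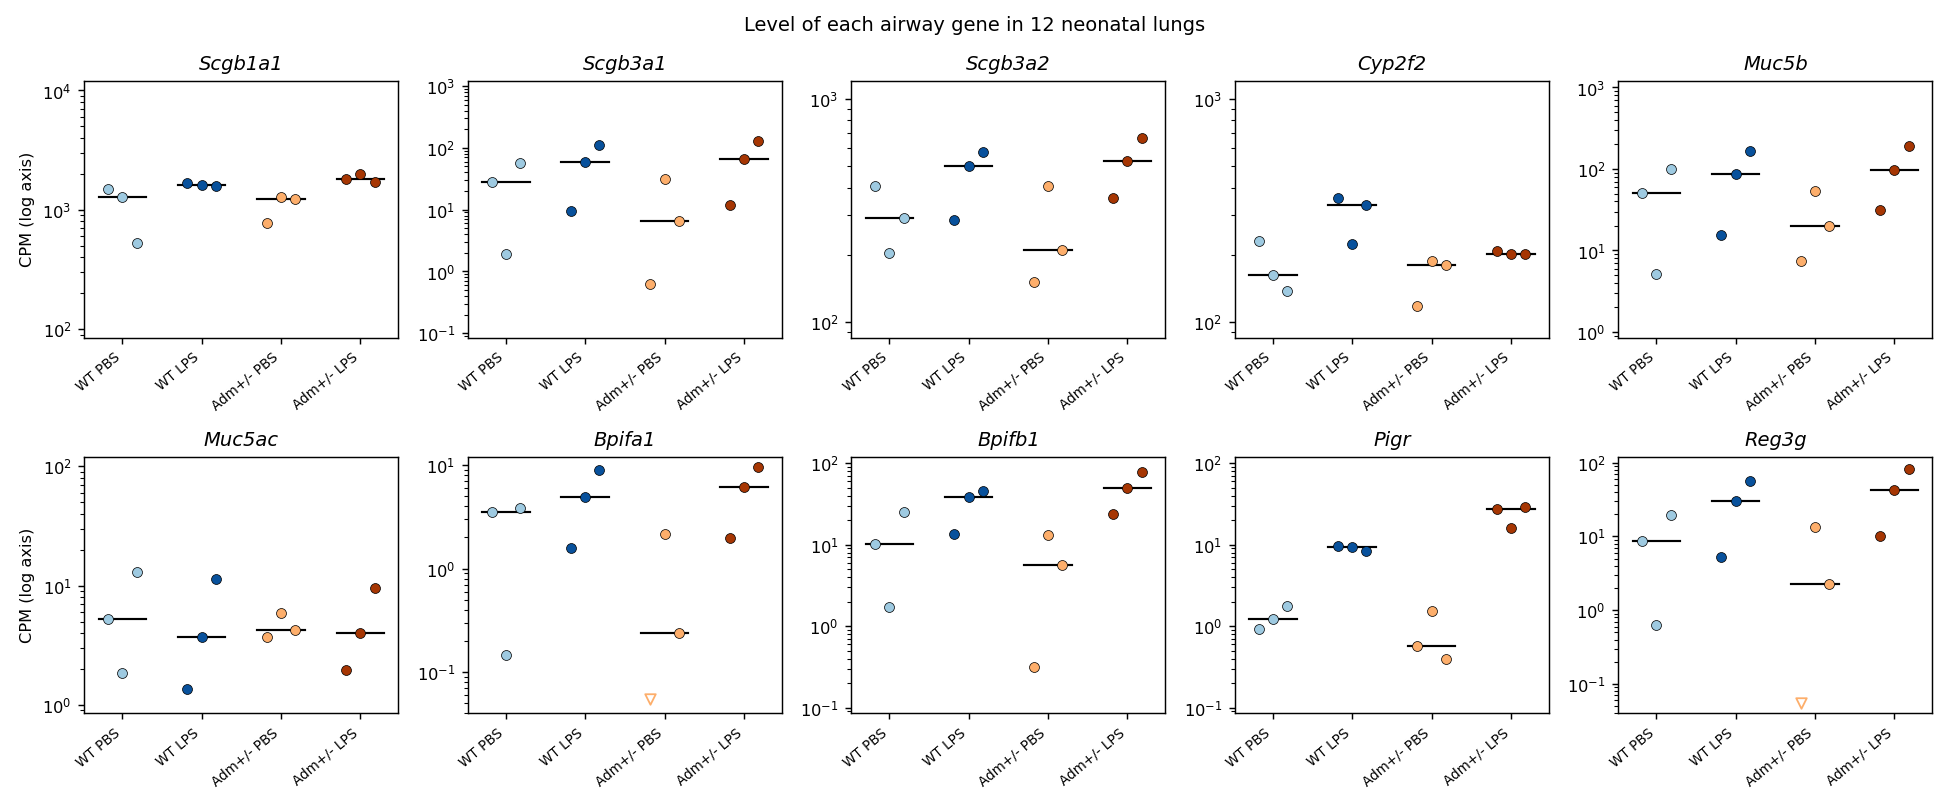
CPM of each of the 10 genes in the 12 lungs (1 point per library, log axis, lines at the group median, n = 3 per group); open triangles mark libraries at 0 counts. Pigr separates LPS from PBS in both genotypes, while Scgb3a1 spans at least 10.8-fold within each group.

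Pigr (ENSMUSG00000026417, chromosome 1, 130826684 to 130852249, + strand) encodes the polymeric immunoglobulin receptor, which carries IgA and IgM through epithelial cells to the lumen. Its level was 0.932, 1.21 and 1.79 CPM in WT PBS 3, 4 and 5 and 9.55, 9.36 and 8.48 CPM in WT LPS 9, 10 and 11. In Adm+/- mice it was 0.579, 1.52 and 0.398 CPM in PBS 6, 7 and 8 and 27.6, 16.2 and 28.9 CPM in LPS 1, 2 and 12. All 6 LPS libraries lay above all 6 PBS libraries, and all 3 Adm+/- LPS libraries lay above the 3 of WT LPS. The log2 fold change under LPS was 2.83 ± 0.4 (SE) in WT and 4.8 ± 0.42 in Adm+/- mice (adjusted p = 0.000906 and 5.91e-05, edgeR quasi-likelihood test). Leaving out any 1 of the 12 libraries kept the call in both genotypes.

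The difference between the genotypes in the Pigr response was 1.98 ± 0.57 on the log2 scale (adjusted p = 0.381), and 23 of all tested genes (0.145%) were past the threshold in that contrast. With 1 library left out the Pigr difference ranged from 1.64 (without Adm+/- PBS 8) to 2.82 (without Adm+/- PBS 7). Under LPS, Pigr was 2.65-fold higher in Adm+/- than in WT mice (log2 fold change 1.41 ± 0.35, adjusted p = 0.0623), which did not pass in the edgeR test. It passed in DESeq2 (adjusted p = 0.003, where 5.06% of genes passed) and limma-voom (adjusted p = 0.0213, 1.79%). In edgeR it passed without WT PBS 5 (adjusted p = 0.036), without Adm+/- PBS 7 (adjusted p = 0.0235) and without both libraries of low coding share (adjusted p = 0.0383, where 3.4% passed). In the other fits that left out 1 library it did not pass. DESeq2 also called the difference in response (2.01, adjusted p = 0.0325), as it did for 1.06% of genes. The limma-voom fit did not call that difference (2.09, adjusted p = 0.45), nor did any edgeR fit that left out 1 library. Neutrophil marker genes were higher with LPS in the same libraries: 10 of 11 tested rose in WT and 11 of 11 in Adm+/- mice, and the list summed to 44.2 to 197.2 CPM under PBS and 1686.7 to 3113.6 CPM under LPS, with no marker at 0 in all libraries. Between the genotypes under LPS that list did not follow Pigr, with 0 of 11 past the threshold and ranges of 1786.5 to 3113.6 CPM in WT and 1686.7 to 2012.6 CPM in Adm+/- mice. Its part in the Pigr levels was not tested.

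The 3 tested genes with profiles nearest to Pigr were Pdcd1, Cd14 and Pla1a, whose centred log2 CPM over the 12 libraries differed from that of Pigr by a root mean square of 0.55, 0.57 and 0.62. The LPS coreceptor gene Cd14 rose, with log2 fold changes of 2.46 in WT and 4.65 in Adm+/- mice (adjusted p = 0.000545 and 4.02e-05). It was higher in Adm+/- than WT mice under LPS (1.68, adjusted p = 0.0159, edgeR quasi-likelihood test). Pla1a, a secreted phospholipase, rose by 2.59 (adjusted p = 0.000158) and 4.91 (adjusted p = 1.84e-05) in the same comparisons.

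Of 12 genes for IgA production and transport that were listed beside Pigr, 8 were tested. In WT, 4 rose with LPS and 1 fell, and in Adm+/- mice 3 rose and 1 fell, where 17.6% and 25.0% of all tested genes passed. The median log2 fold changes were 0.72 and 0.36, against 0.01 and -0.01 over all tested genes. Jchain, which joins IgA into polymers that the Pigr product binds, rose by 4.11 in WT and 3.17 in Adm+/- mice (adjusted p = 0.00056 and 0.00137). Its mean was 0.129 CPM in WT PBS and 2.3 CPM in WT LPS. Fcamr, a receptor for IgA and IgM, and Tnfsf13b, the B cell survival factor BAFF, also rose in both genotypes, while Ccr10, a homing receptor of IgA plasma cells, fell by 1.43 in WT and by 2.19 in Adm+/- mice (adjusted p = 0.0418 and 0.0056). Tnfrsf13b, a receptor for BAFF, rose in WT (0.81, adjusted p = 0.0355) and had a log2 fold change of 0.25 in Adm+/- mice (adjusted p = 0.467).

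Scgb1a1 (ENSMUSG00000024653, chromosome 19, 9083636 to 9087958, - strand) encodes the club cell secretory protein. It measured 1507.5, 1269.9 and 526.6 CPM in WT PBS 3, 4 and 5 and 1667.5, 1631.6 and 1574.3 CPM in WT LPS 9, 10 and 11. Adm+/- mice had 775.8, 1292.2 and 1236.2 CPM in PBS 6, 7 and 8 and 1808.0, 2001.5 and 1717.7 CPM in LPS 1, 2 and 12. Every LPS library was above every PBS library, and the lowest values were those of WT PBS 5 and Adm+/- PBS 6, the libraries with the low coding shares. The log2 fold change was 0.56 ± 0.31 in WT and 0.74 ± 0.31 in Adm+/- mice (adjusted p = 0.205 and 0.0865, edgeR quasi-likelihood test), so neither passed. Without both libraries of low coding share the WT value was 0.22 and did not pass (adjusted p = 0.126), the value in Adm+/- mice was 0.54 and passed (adjusted p = 0.00261), and in Adm+/- mice 3 members and 24.4% of tested genes passed in that fit.

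Scgb3a2 (ENSMUSG00000038791, chromosome 18, 43764289 to 43767399, + strand) is a secretoglobin of club and related airway cells. Its WT values were 406.4, 202.9 and 291.5 CPM under PBS and 285.9, 497.4 and 578.9 CPM under LPS, with overlapping ranges. In Adm+/- mice PBS libraries 6, 7 and 8 had 150.8, 405.4 and 209.7 CPM and LPS libraries 1, 2 and 12 had 359.4, 528.6 and 665.6 CPM. Only Adm+/- PBS 7 reached into the LPS range of that genotype. Neither the WT value of 0.6 ± 0.39 (adjusted p = 0.285) nor the Adm+/- value of 1.02 ± 0.39 (adjusted p = 0.068) passed in edgeR. The second passed in DESeq2 (1.03, adjusted p = 0.0241), where 4 members and 27.0% of genes did, and in edgeR without Adm+/- PBS 7 (1.52, adjusted p = 0.0152).

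Cyp2f2 (ENSMUSG00000052974, chromosome 7, 27119909 to 27133660, + strand) encodes a club cell cytochrome P450 that activates inhaled aromatic compounds such as naphthalene. WT mice had 230.9, 162.7 and 137.7 CPM under PBS and 360.1, 222.9 and 335.6 CPM under LPS, and WT LPS 10 lay below WT PBS 3. Adm+/- mice had 117.9, 188.0 and 179.2 CPM under PBS and 207.0, 201.1 and 202.0 CPM under LPS, where the groups did not overlap. It rose in WT by 0.79 ± 0.23 (adjusted p = 0.0319, edgeR quasi-likelihood test), and the value in Adm+/- mice was 0.33 ± 0.23 (adjusted p = 0.3). The difference between the genotypes was -0.46 ± 0.32 (adjusted p = 0.863). The WT call was lost without WT PBS 4, WT PBS 5, WT LPS 9 or WT LPS 11 (adjusted p = 0.0811, 0.0915, 0.135 and 0.0808).

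In WT LPS, Cyp2f2 was highest in library 9 and lowest in library 10, and the squamous epithelium marker list summed to 3210.9, 69.4 and 1658.6 CPM in libraries 9, 10 and 11. That list lay between 14.5 and 31.8 CPM in the PBS libraries and between 66.5 and 106.8 CPM in Adm+/- LPS, with 12 of 14 tested markers past the threshold in WT and 1 of 14 in Adm+/- mice. Of its 20 genes, Sprr1b was at 0 in all libraries. With the mean of that list as a covariate, the WT value for Cyp2f2 was 0.09 (adjusted p = 0.976) and that for Pigr was 2.89 (adjusted p = 0.0839). That list itself separated WT LPS from WT PBS, and in this fit 0.724% of all tested genes passed in WT, so the list and the contrast cannot be told apart and its part in the Cyp2f2 value was not tested. An annotated antisense gene, Gm15883, overlaps Cyp2f2, and the strand option of the counting was not given in the sources used here, so reads of these genes may not be told apart.

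Of 18 other club cell enzymes and markers, all tested, 8 rose and 1 fell in WT and 7 rose and 1 fell in Adm+/- mice, with median log2 fold changes of 0.6 and 0.72. Over all tested genes 17.6% passed in WT and 25.0% in Adm+/- mice. Haptoglobin (Hp) rose by 1.92 in WT and 3.15 in Adm+/- mice (adjusted p = 0.00123 and 7.12e-05). The monooxygenase gene Fmo2 rose by 1.29 (adjusted p = 0.031) and 1.15 (adjusted p = 0.0358), and Selenbp1, a selenium-binding protein, by 0.58 (adjusted p = 0.00275) and 0.8 (adjusted p = 0.00022). The gene that fell was the uroplakin Upk3a in WT (-1.1, adjusted p = 0.0108) and the cholecystokinin receptor Cckar in Adm+/- mice (-1.32, adjusted p = 0.00257). The summed list ranged from 1509.7 to 2008.1 CPM under PBS and from 3103.2 to 4127.8 CPM under LPS. Between the genotypes under LPS, 1 gene of the list, the glutathione transferase Gsto1, passed, and it was lower in Adm+/- mice (-3.01, adjusted p = 0.0365). Gsto1 had 715.0, 55.5 and 344.2 CPM in WT LPS 9, 10 and 11, which is the order of the squamous sums, and 43.7 to 49.5 CPM in Adm+/- LPS. In the same contrast 6 of 14 squamous and 3 of 7 airway basal markers (Krt15, Krt5 and Trp63) were lower, and their part was not tested.

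Scgb3a1 (ENSMUSG00000064057, chromosome 11, 49663610 to 49665118, + strand) is a secretoglobin of larger airways. It had 27.8, 1.89 and 57.7 CPM in WT PBS 3, 4 and 5 and 9.37, 60.0 and 112.3 CPM in WT LPS 9, 10 and 11. In Adm+/- PBS 6, 7 and 8 it had 0.631, 31.3 and 6.52 CPM, and in Adm+/- LPS 1, 2 and 12 it had 11.9, 65.7 and 128.5 CPM. Within a group the highest library exceeded the lowest by 30.5-fold, 12.0-fold, 49.5-fold and 10.8-fold in the order given, and the PBS and LPS ranges overlapped in both genotypes. Its log2 fold changes of 1.06 ± 1.26 in WT and 2.4 ± 1.31 in Adm+/- mice (adjusted p = 0.568 and 0.188, edgeR quasi-likelihood test) did not pass. With 1 library left out they ranged from 0.25 (WT LPS 11) to 2.0 (WT PBS 5) in WT and from 1.57 (Adm+/- LPS 12) to 4.21 (Adm+/- PBS 7) in Adm+/- mice.

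Of 22 other secretoglobin genes in the table, 18 had no count in any library and 1, Scgb1c1, was tested. It averaged 1.4 CPM in WT PBS, 1.29 in WT LPS, 1.44 in Adm+/- PBS and 1.12 in Adm+/- LPS.

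Muc5b (ENSMUSG00000066108, chromosome 7, 141839070 to 141873084, + strand) encodes the main gel-forming mucin of the healthy airway. WT libraries 3, 4 and 5 under PBS had 50.9, 5.1 and 99.0 CPM, and WT libraries 9, 10 and 11 under LPS had 15.6, 87.8 and 167.3 CPM. The Adm+/- values were 7.52, 53.8 and 19.7 CPM under PBS and 31.7, 96.3 and 188.9 CPM under LPS. LPS and PBS ranges overlapped in both genotypes. Neither genotype passed, at 0.81 ± 1.03 in WT and 1.96 ± 1.06 in Adm+/- mice (adjusted p = 0.595 and 0.184). The WT value was 0.0 without WT LPS 11 and 1.67 without WT PBS 5, and the Adm+/- value 1.23 without Adm+/- LPS 12 and 2.94 without Adm+/- PBS 7.

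Muc5ac (ENSMUSG00000037974, chromosome 7, 141788972 to 141819231, + strand), the mucin gene of goblet cells in mucous metaplasia, ends 19.8 kb before Muc5b. It had 5.24, 1.84 and 13.0 CPM in WT PBS, 1.36, 3.7 and 11.4 CPM in WT LPS, 3.68, 5.85 and 4.25 CPM in Adm+/- PBS and 1.98, 3.98 and 9.51 CPM in Adm+/- LPS. All 4 groups overlapped. Its log2 fold changes were -0.28 ± 0.79 in WT and 0.16 ± 0.79 in Adm+/- mice (adjusted p = 0.82 and 0.899), and both changed sign with the processing. Per kb of exon, Muc5b exceeded Muc5ac by 1.47-fold to 6.98-fold in the 6 PBS libraries and by 8.28-fold to 17.4-fold in the 6 LPS libraries. This ratio was chosen after the values were seen and was not tested.

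Among 14 other mucin genes in the table, 9 were tested, of which 4 rose in WT and 5 in Adm+/- mice and none fell, with medians of 0.42 and 0.7. All tested genes passed at shares of 17.6% in WT and 25.0% in Adm+/- mice. The membrane mucins Muc4 (1.71, adjusted p = 0.00633, and 1.36, adjusted p = 0.0118), Muc16 (1.69, adjusted p = 0.0177, and 1.31, adjusted p = 0.0354) and Muc13 (1.8, adjusted p = 0.0497, and 2.63, adjusted p = 0.00386) rose in WT and in Adm+/- mice. Muc20 rose in WT (1.01, adjusted p = 0.0213), and Muc1 (0.7, adjusted p = 0.0394) and Muc2 (0.77, adjusted p = 0.0412) rose in Adm+/- mice. The other mucins summed to 472.4, 361.8 and 417.8 CPM in WT LPS 9, 10 and 11, again the order of the squamous sums, and Muc4 averaged 60.4 CPM ± 36.9 (SD, n = 3) in WT LPS and 49.0 ± 0.268 in Adm+/- LPS. The list also includes the sialomucin genes Emcn and Cd164, neither among those that rose, so its sum is not one of airway mucins alone. The part of the squamous list in these values was not tested.

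The goblet cell list held 14 tested genes, of which 3 rose and 1 fell in WT and 2 rose and 1 fell in Adm+/- mice, with medians of -0.17 and 0.47. The shares past the threshold over all tested genes were 17.6% and 25.0%. Clca3a1, of the calcium-activated chloride channel regulator family, rose by 2.18 (adjusted p = 0.0321) and 4.3 (adjusted p = 0.00102). The anion exchanger Slc26a4, pendrin, rose by 3.25 (adjusted p = 0.00511) and 5.61 (adjusted p = 9.72e-05), and under LPS it was higher in Adm+/- than in WT mice (2.73, adjusted p = 0.0163). Clca3b rose in WT, where its mean was 0.0162 CPM under PBS and 53.2 ± 56.3 (SD, n = 3) under LPS, and was lower in Adm+/- than in WT mice under LPS (-6.19, adjusted p = 0.0177). Its WT LPS values of 115.7, 6.2 and 37.8 CPM in libraries 9, 10 and 11 had the order of the squamous sums. The chloride channel gene Ano1 fell in WT (-0.56, adjusted p = 0.0219) and the transcription factor gene Foxa2 in Adm+/- mice (-0.6, adjusted p = 0.043). Tff1 and Tff3, trefoil peptides of mucous cells, had no count.

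Bpifa1 (ENSMUSG00000027483, chromosome 2, 154142880 to 154149219, + strand) encodes SPLUNC1, a secreted surfactant-like defence protein. It had 3.49, 0.146 and 3.83 CPM in WT PBS, 1.57, 4.87 and 9.0 CPM in WT LPS, 0.0, 2.16 and 0.239 CPM in Adm+/- PBS and 1.98, 6.07 and 9.51 CPM in Adm+/- LPS. These rest on 0, 64 and 6 reads in Adm+/- PBS, where 0 of library 6 allows up to 0.158 CPM by counting error alone. WT and Adm+/- PBS ranges each overlapped the LPS range of the same genotype. Neither 1.04 ± 1.04 in WT (adjusted p = 0.489) nor 2.76 ± 1.12 in Adm+/- mice (adjusted p = 0.083) passed, and the latter was 5.41 without Adm+/- PBS 7 and passed (adjusted p = 0.025).

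Bpifb1 (ENSMUSG00000027485, chromosome 2, 154190818 to 154220369, + strand), 41.6 kb from Bpifa1, encodes LPLUNC1, a larger protein of the same family. WT libraries had 10.1, 1.7 and 25.1 CPM under PBS and 13.4, 38.2 and 45.4 CPM under LPS, with overlap. Adm+/- libraries had 0.316, 13.0 and 5.69 CPM under PBS and 24.0, 50.1 and 78.2 CPM under LPS, with none of the latter at or below 13.0. It rose in Adm+/- mice by 2.97 ± 0.99 (adjusted p = 0.0408), and the WT value was 1.41 ± 0.94 (adjusted p = 0.299, edgeR quasi-likelihood test). The Adm+/- call was lost in 7 of the 12 fits that each left out 1 library (adjusted p of 0.0505 to 0.124), namely WT LPS 10 or 11, Adm+/- PBS 6 or 8, or any of the Adm+/- LPS libraries. Without both libraries of low coding share the values were 2.41 in WT and 2.43 in Adm+/- mice (adjusted p = 0.0575 and 0.0359), and their difference was 0.02, against 1.56 with all libraries.

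Among 15 other BPI-fold family genes, 4 were tested and 1 rose: Lbp, the LPS-binding protein that hands LPS to Cd14, by 1.2 in WT and 1.79 in Adm+/- mice (adjusted p = 0.0037 and 0.000209). Its mean went from 25.7 to 59.0 CPM and from 20.4 to 70.5 CPM. Bpifb6, Bpifb3, Bpifb4 and Bpifa6 had no count.

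Reg3g (ENSMUSG00000030017, chromosome 6, 78466269 to 78468872, - strand) encodes a secreted lectin that acts on Gram-positive bacteria. It had 8.7, 0.631 and 19.2 CPM in WT PBS, 5.27, 30.6 and 55.5 CPM in WT LPS, 0.0, 13.3 and 2.27 CPM in Adm+/- PBS and 10.1, 42.2 and 81.9 CPM in Adm+/- LPS. Adm+/- PBS 7, with 394 reads, and WT PBS 3 and 5 lay inside the LPS range of their genotype. The values of 1.69 ± 1.26 in WT and 3.06 ± 1.32 in Adm+/- mice (adjusted p = 0.352 and 0.0997) did not pass, and without Adm+/- PBS 7 the second was 5.2 and passed (adjusted p = 0.0425). Without both libraries of low coding share they were 2.65 and 2.5 (adjusted p = 0.166 and 0.144). The 0 reads of Adm+/- PBS 6 allow up to 0.158 CPM by counting error alone. None of 6 other Reg family genes was tested. Reg3b, another lectin of the family, averaged 0.253 CPM in Adm+/- LPS and less in the other groups. How reads matching more than 1 gene were handled was not given in the sources used here, so counts of similar family members are uncertain.

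In WT mice 2 of 10 members were past the threshold, against 17.6% of all tested genes, and in Adm+/- mice 2 of 10 were, against 25.0%. These shares are near the background. The median log2 fold change of the members was 0.92 in WT, where it was 0.01 over all tested genes, and 2.18 in Adm+/- mice, where it was -0.01. WT had 9 values above 0 and 1 below, and Adm+/- mice had 10 above. Without WT PBS 5 and Adm+/- PBS 6 the medians were 1.55 and 1.69, with 10 values above 0 in each genotype. In a fit of the 6 Adm+/- libraries alone 6 members passed, against 29.2% of all tested genes: Pigr, Bpifb1, Scgb1a1 (0.75, adjusted p = 0.0122), Scgb3a2 (1.02, adjusted p = 0.0433), Bpifa1 (2.73, adjusted p = 0.0364) and Reg3g (3.04, adjusted p = 0.0464, edgeR quasi-likelihood test). In a fit of the 6 WT libraries alone 1 member, Pigr, passed, against 7.39% of all tested genes, and Cyp2f2 did not (0.79, adjusted p = 0.101). Ranges did not overlap for 2 members in WT (Scgb1a1 and Pigr), against 36.2% of tested genes, and for 4 in Adm+/- mice (Scgb1a1, Cyp2f2, Bpifb1 and Pigr), against 53.7%.

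**Figure D2:**
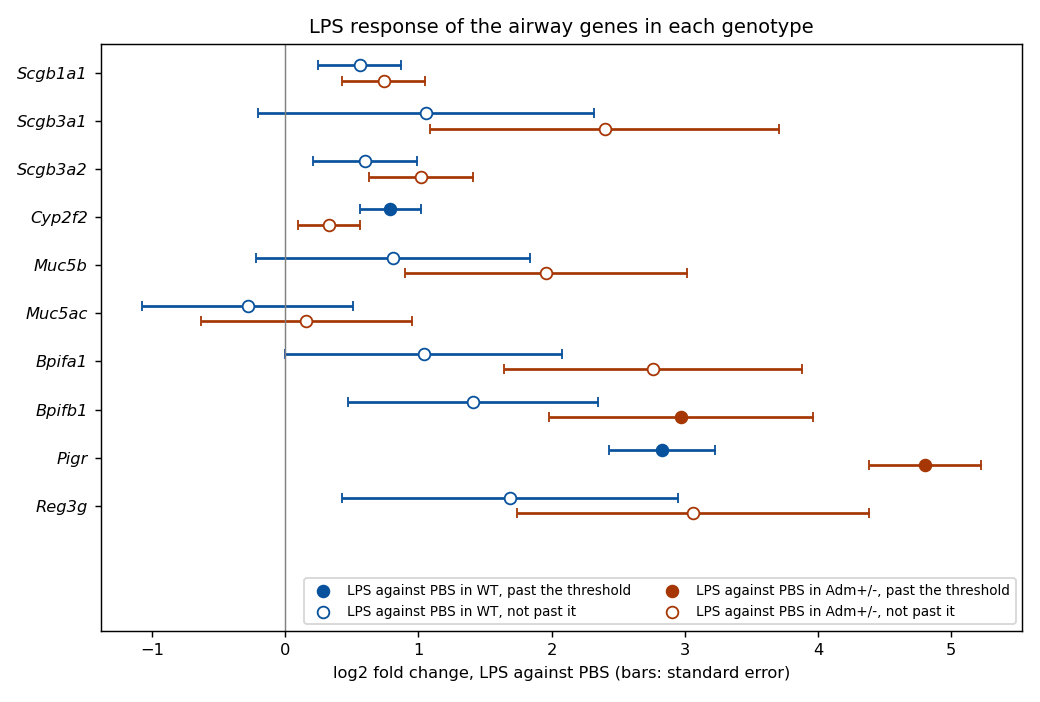
Log2 fold change of each gene, LPS against PBS, in WT (blue) and Adm+/- mice (orange), with bars of 1 standard error and filled points for genes past the threshold (3 libraries per group). Pigr has narrow bars far from 0, and the bars of Scgb3a1, Muc5b, Bpifa1 and Reg3g exceed 1 log2 unit on each side.

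Between the genotypes, the effect of Adm was tested under each treatment. Under PBS no member passed, and neither did any tested gene (0.0%) in the edgeR quasi-likelihood test, although 344 (2.17%) had an unadjusted p under 0.05, none of them a member; DESeq2 also called 0.0%. Member values lay between -1.52 (Bpifa1) and 0.0 (Scgb1a1), all with adjusted p of at least 0.999. The Bpifa1 value was -4.17 without Adm+/- PBS 7 and -1.01 without Adm+/- PBS 6. Every member's ranges overlapped, where 4.99% of tested genes had none. Under LPS 0 of 10 passed, where 2.05% of tested genes did, and 2 members had an unadjusted p under 0.05, as did 14.3% of tested genes: Pigr, described above, and Cyp2f2, at -0.59 ± 0.23 (adjusted p = 0.245), whose 3 Adm+/- libraries were all below the 3 of WT. With the squamous covariate the Cyp2f2 value was -0.08 (adjusted p = 0.999) and 86 tested genes passed, against 325, and the part of that list was not tested. Scgb1a1 was higher in all 3 Adm+/- LPS libraries than in WT LPS, by 0.18 ± 0.3 on the log2 scale (adjusted p = 0.907). Ranges failed to overlap for these 3 members, against 24.6% of tested genes. The other 7 lay between -0.08 and 0.65. For the difference between genotypes in the LPS response, 9 of 10 values were above 0, with a median of 1.25, and standard errors reached 1.77 for Scgb3a1. Without WT PBS 5 and Adm+/- PBS 6, 5 values were above 0 and 5 below, with a median of -0.07. The 2 LPS responses are compared here only by that contrast and by each one's own values.

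By group mean, Scgb3a1, Scgb3a2, Muc5b, Bpifa1, Bpifb1, Pigr and Reg3g all took the order Adm+/- PBS, WT PBS, WT LPS, Adm+/- LPS from low to high, and each neighbouring step overlapped apart from the last 2 steps of Pigr. Without WT PBS 5 and Adm+/- PBS 6, the PBS groups changed places in Scgb3a1, Scgb3a2, Muc5b, Bpifb1 and Reg3g, and also in Scgb1a1 and Muc5ac. Scgb1a1 ran WT PBS, Adm+/- PBS, WT LPS, Adm+/- LPS, with overlap only between the PBS groups. For Cyp2f2 the order was Adm+/- PBS, WT PBS, Adm+/- LPS, WT LPS, and its last step did not overlap. Muc5ac was highest in WT PBS with all 12 libraries and in WT LPS without those 2, and all its neighbours overlapped.

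The spread between mice of a group separated the members. As a pooled SD of log2 CPM within groups, it was 2.53 for Reg3g, 2.27 for Scgb3a1, 1.88 for Bpifa1, 1.76 for Bpifb1, 1.72 for Muc5b and 1.17 for Muc5ac. The median of all tested genes was 0.23, and only 6 of 15885 had a larger value than Reg3g and 8 a larger one than Scgb3a1. Scgb3a2 and Pigr (0.56 each), Scgb1a1 (0.46) and Cyp2f2 (0.32) were less variable.

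Scgb3a1, Muc5b, Muc5ac, Bpifa1, Bpifb1 and Reg3g ranked the mice identically in every group: library 4 lowest and 5 highest in WT PBS, 9 lowest and 11 highest in WT LPS, 6 lowest and 7 highest in Adm+/- PBS, and 1 lowest and 12 highest in Adm+/- LPS. Scgb3a2 followed that order in 3 groups, Scgb1a1 and Cyp2f2 in 1 and Pigr in 0. Among all tested genes 36 had the order in all 4 groups, including these 6, and among 183 genes with a pooled SD over 1, 11 had it. The 5 of those 11 that are not members were Clca1, Tff2, Acan, Dmrt3 and Vat1l, all named after their values were seen. Tff2, a trefoil peptide secreted with mucus, had 1.2, 0 and 8.15 CPM in WT PBS 3, 4 and 5 and 0.262, 1.93 and 6.27 CPM in Adm+/- LPS 1, 2 and 12. Acan, the cartilage proteoglycan aggrecan, had 3.81, 0.631 and 10.4 CPM in WT PBS 3, 4 and 5. The grouping of the 6 members was also made after their values were seen and is a description.

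**Figure D3:**
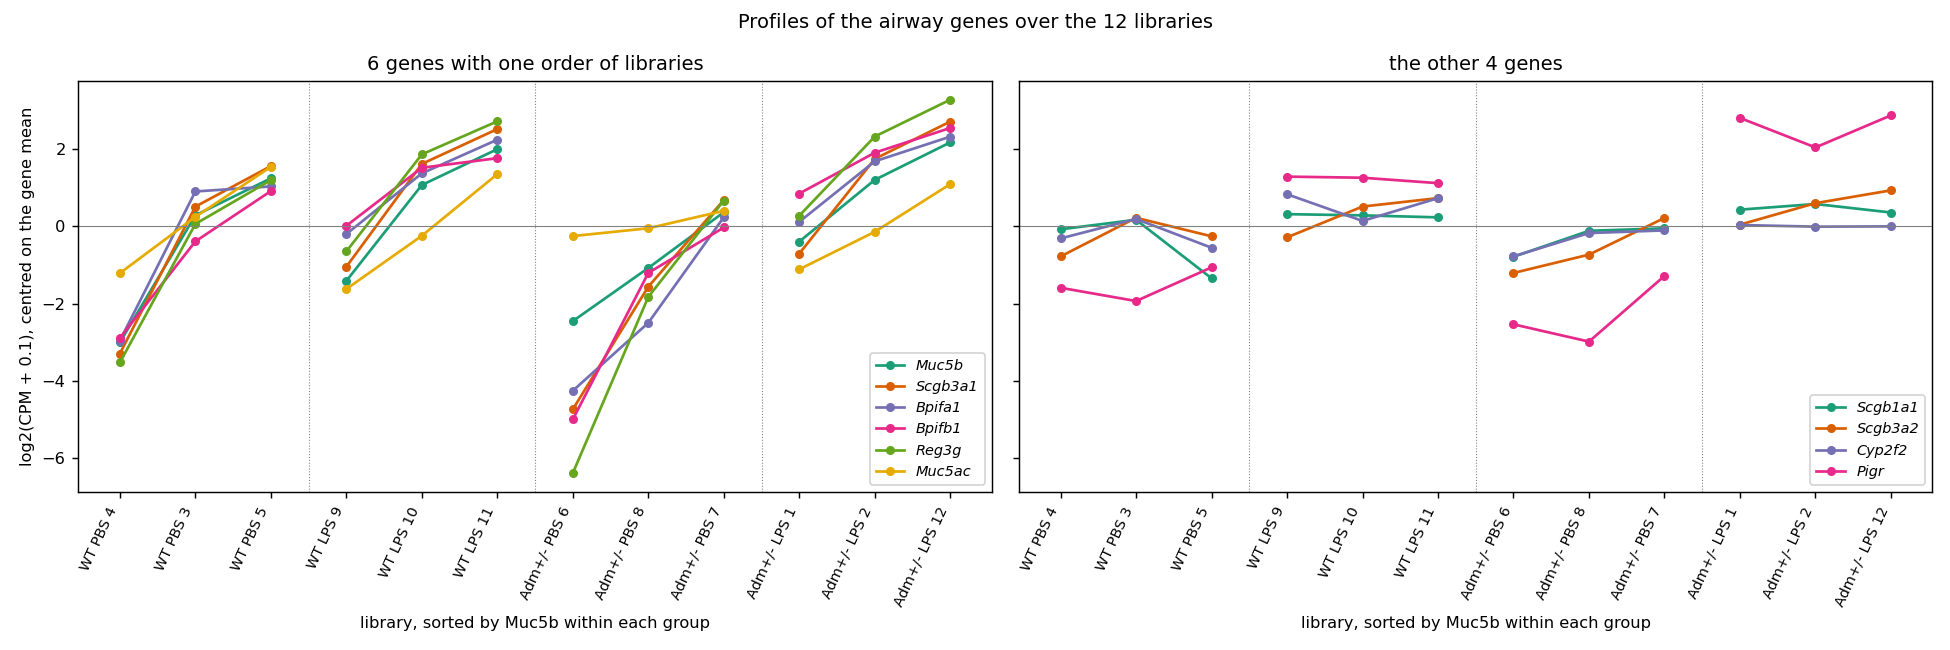
Log2(CPM + 0.1) of each gene, centred on its mean over the 12 libraries, with libraries sorted by Muc5b within each group (1 point per library). The 6 genes on the left climb together within each group, and Pigr on the right is level within WT LPS and steps between treatments.

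The genes nearest in profile were mostly other members for this group. Scgb3a1, Bpifa1, Bpifb1 and Reg3g had only each other as their 3 nearest tested genes, at root mean square differences of 0.53 (Scgb3a1 and Bpifa1) to 0.83 (Bpifa1 and Reg3g). Muc5b was nearest to Tff2 (0.77), Scgb3a1 (0.78) and Akr1c18 (0.86), and Muc5ac to Fcgbp (0.53), Col11a1 (0.54) and Col9a3 (0.56). Among the nearest to Scgb1a1 were Fam126b (0.09) and Yod1 (0.12). Scgb3a2 was nearest to Ankub1 (0.22), Tmem232 (0.26) and Ccdc121 (0.28), and Cyp2f2 to Car5b (0.1), Cxxc4 (0.1) and Cdh13 (0.15).

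Markers of other tissue moved in part with this order. The summed cartilage list followed it in 3 of 4 groups, with 165.4, 149.3 and 413.8 CPM in WT PBS 3, 4 and 5, 94.1, 135.2 and 170.2 CPM in WT LPS 9, 10 and 11 and 122.2, 153.7 and 164.1 CPM in Adm+/- LPS 1, 2 and 12. In Adm+/- PBS 6, 7 and 8 the sums were 216.0, 161.2 and 138.6 CPM and did not follow it. None of the 14 cartilage genes in the table was at 0 in all libraries, and with LPS 0 of 12 tested passed in WT and 1, Sox9, in Adm+/- mice. The pulmonary neuroendocrine cell list also followed the order in 3 groups, with 6.8, 6.02 and 8.15 CPM in WT PBS 3, 4 and 5, 6.69 and 7.4 CPM in WT LPS 9 and 10 and more in 11, 4.26, 5.54 and 5.53 CPM in Adm+/- PBS 6, 7 and 8, and an exception in Adm+/- LPS (6.62, 7.12 and 6.38 CPM). Ciliated cell genes followed the order in 2 groups as a sum, although the dynein genes Dnah2, Dnah3, Dnah9 and Dnali1, named after their values were seen, were among the 36 genes with it in all 4. The sum lay between 308.9 and 596.9 CPM in all libraries. Submucosal gland genes followed it in 0 groups, at 2.68 to 6.21 CPM, with Pip, Prol1, Prb1, Dcpp1 and Dcpp2 at 0 throughout. Skeletal muscle genes followed it in 2 groups and summed to 986.7 to 2386.2 CPM in WT LPS, against at most 62.3 CPM in any library of the other groups. The summed lists of club cell markers, the goblet cell programme and the other mucins followed the order in 0 groups. The part of these tissues in the members' spread was not tested.

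With the mean of the cartilage list as a covariate in the fit, 4 members passed in WT, where 14.2% of tested genes did: Pigr, Muc5b (1.88, adjusted p = 0.0311), Bpifb1 (2.45, adjusted p = 0.0448) and Reg3g (2.95, adjusted p = 0.0329), while Cyp2f2 did not (0.74, adjusted p = 0.0603). In Adm+/- mice 7 passed, against 26.0% of tested genes: Pigr, Bpifb1, Scgb3a1 (2.19, adjusted p = 0.0392), Scgb3a2 (1.02, adjusted p = 0.0209), Muc5b (1.79, adjusted p = 0.0174), Bpifa1 (2.73, adjusted p = 0.0181) and Reg3g (2.98, adjusted p = 0.0138, edgeR quasi-likelihood test). With the squamous list in its place, 0 members and 0.724% of tested genes passed in WT, and 1 member, Pigr, and 18.9% of tested genes in Adm+/- mice. With the ciliated cell list, 2 members passed in each genotype (17.9% and 23.2% of tested genes), Cyp2f2 and Pigr in WT and Pigr and Muc5ac in Adm+/- mice, and the Muc5ac value was then negative (-1.87). The cartilage sum followed the library order of the 6 members in 3 groups and the ciliated sum in 2, as seen beforehand. These covariates therefore overlap with the members' own spread, and the calls gained or lost with them are no independent result.

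Beyond these families, 22 of 30 airway and mucosal defence proteins were tested, and 16 rose in WT and 17 in Adm+/- mice, with none lower and medians of 2.14 and 1.98. Over all tested genes 17.6% passed in WT and 25.0% in Adm+/- mice. Camp and Ltf belong both to this list and to the neutrophil list, and the part of neutrophils in these counts was not tested. Saa3, an acute-phase protein, rose by 5.9 (adjusted p = 0.00408) and 10.36 (adjusted p = 0.000294). WT PBS 4 stood apart for it, since Saa3 had 1.24, 38.1 and 1.61 CPM in WT PBS 3, 4 and 5, and the neutrophil list summed to 65.5, 197.2 and 65.7 CPM in the same libraries. Lcn2 binds bacterial siderophores and rose by 3.99 (adjusted p = 0.000266) and 5.43 (adjusted p = 5.91e-05). The collectin gene Sftpa1 rose in Adm+/- mice (0.71, adjusted p = 0.0263) and had a value of 0.31 in WT (adjusted p = 0.317). Under LPS, 2 genes of the list were lower in Adm+/- than WT mice, the hydrogen peroxide-generating oxidase Duox2 (-4.71, adjusted p = 0.0208) and its maturation factor Duoxa2 (-4.85, adjusted p = 0.0274). Duox2 had 14.0, 1.12 and 9.12 CPM and Duoxa2 2.99, 0.582 and 2.27 CPM in WT LPS 9, 10 and 11, again in the order of the squamous sums. The squamous and basal markers named beside Gsto1 were lower in this contrast too, and their part was not tested.

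Of 22 tested cytokines and receptors that act on airway epithelium, 13 rose in WT, and 16 rose and 1 fell in Adm+/- mice, with medians of 0.79 and 1.34. The share of all tested genes past the threshold was 17.6% in WT and 25.0% in Adm+/- mice. Il6st, the signalling subunit shared by receptors of the IL-6 family, rose by 0.73 (adjusted p = 0.0291) and 1.66 (adjusted p = 0.000248). Stat3, which acts downstream of Il6st, rose by 0.85 (adjusted p = 0.0392) and 1.82 (adjusted p = 0.000528). Il4ra, a receptor subunit for IL-4 and IL-13, rose by 1.02 (adjusted p = 0.0172) and 2.2 (adjusted p = 0.000172), and Il17re, a receptor for IL-17C, fell in Adm+/- mice (-0.97, adjusted p = 0.00263).

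**Figure D4:**
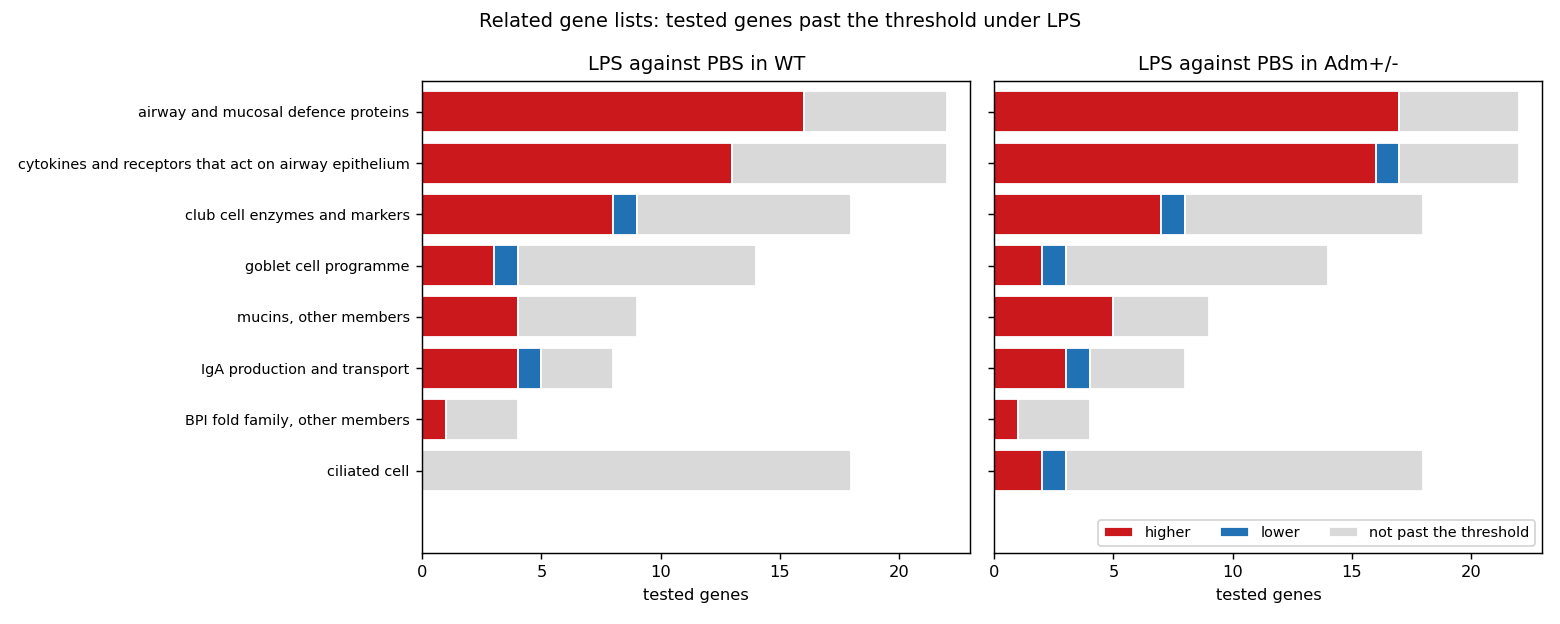
Number of tested genes in each related list that were higher (red), lower (blue) or not past the threshold (grey) under LPS in WT and Adm+/- mice. Defence proteins had 16 and 17 of 22 higher, and ciliated cell genes 0 and 2 of 18, where 17.6% and 25.0% of all tested genes were past the threshold.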

How the data were processed

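Total RNA of 12 lungs was made into libraries with a directional kit after depletion of rRNA. The authors trimmed the reads with Trim Galore, aligned them with HISAT2 to mm10 and assigned them with featureCounts to Gencode genes; the release and strand option are not given in the sources used here. The deposited table holds raw counts for 52550 genes, without normalization. Positions and biotypes came from Gencode M21, which held 52403 of these genes (99.7%).

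In R 4.3.3, edgeR 4.0.16 normalized by TMM the 15885 of 21950 protein-coding genes that passed filterByExpr and fitted them with 1 coefficient per group (8 residual degrees of freedom, no covariate). Quasi-likelihood F-tests gave 5 contrasts: LPS against PBS in each genotype, their difference, and Adm+/- against WT mice under PBS and under LPS. Standard errors were derived from the fold change and F, and log2 CPM used a prior count of 2. Alternatives were RLE scaling, DESeq2 1.42.0, limma 3.58.1 (voom and treat), glmTreat, other filters, all annotated genes, 6-library fits, left-out libraries and marker-list covariates. Scripts were tested on simulated data. All 12 pairs of libraries of a group differed beyond sampling noise.

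Depth was 22382535 to 38062873 counts per library. Intervals and floors (3 counts) cover counting error only, since reads carry no molecular identifiers. Members, gene lists and tests were chosen with earlier results of these data known. Named beside the members are, of each list, up to 3 of the most abundant genes past the threshold and all where 5 or fewer passed, and the 3 genes nearest in profile, of which 1 is not reported here. A list's count is read beside all tested genes and is no test of the list. For LPS against PBS those shares were 17.6% in WT and 25.0% in Adm+/- mice.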

Additional observations from a re-analysis of the deposited data

Results flagged for a closer look

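Of all tested genes, 23 had an LPS response that differed between the genotypes by the test of the difference itself (edgeR quasi-likelihood test, adjusted p below 0.05 and absolute log2 difference above 0.5), each with the lower value in Adm+/- mice. None was a member of the airway set, whose smallest adjusted p in that contrast was 0.381. Of these genes, 6 belonged to the skeletal muscle list, among them Myh8 (-6.62, adjusted p = 0.00952) and Neb (-3.68, adjusted p = 0.0032), whose summed level was 986.7 to 2386.2 CPM in WT LPS. Single outlying libraries were not tested, since each group had 3.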

How the results depend on the processing

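Of 640 member fold changes under other settings, 561 kept direction and side of the threshold, 10 lost the call, 20 gained it and 49 changed sign, and of 600 with 1 library left out the numbers were 556, 11, 6 and 27. The causes were not tested. The sample labels name no litter or other link between mice of different groups, so no paired analysis was made. Depth limits Pigr and Bpifa1 under PBS, with 0 to 90 reads per library, Reg3g in WT PBS 4 (13 reads), and Reg3g, Bpifb1 and Scgb3a1 in Adm+/- PBS 6 (0, 6 and 12).

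With 2 members called in WT, voom treat, glmTreat and the 6-library fit gave 1, the squamous covariate 0 and the cartilage covariate 4. All genes called in WT were 542 (voom treat), 1001 (glmTreat), 1152 (6 libraries) and 115 (squamous), against 2791. In Adm+/- mice members called were 4 (DESeq2), 1 (voom treat, glmTreat, squamous), 6 (6 libraries) and 7 (cartilage), against 2, and all genes 1139 (voom treat), 1695 (glmTreat) and 4527 (6 libraries), against 3968. For the difference, DESeq2 called 1 member (Pigr), and all genes numbered 168 (DESeq2), 1 (voom), 0 (voom treat), 13 (glmTreat) and 12 (squamous), against 23. Under LPS between genotypes 1 member, Pigr, was called by DESeq2, voom, the 6-library fit and without both libraries of low coding share, and all genes numbered 803 (DESeq2), 79 (voom treat), 133 (glmTreat), 548 (without both), 86 (squamous) and 499 (cartilage), against 325.

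Values that changed sign, as log2: Muc5ac in WT was 0.6 without both libraries of low coding share, 0.22 with the squamous and 0.42 with the cartilage covariate. In Adm+/- mice Muc5b was -0.35 (ciliated), and Muc5ac -0.11 (voom and voom treat), -1.87 (ciliated) and -0.1 (cartilage). For the difference without both, with the ciliated and with the cartilage covariate, Scgb3a1 was -0.15, -0.54 and -0.21, Muc5b -0.15, -0.68 and -0.09 and Muc5ac -0.57, -1.08 and -0.52. Reg3g was -0.15 without both and -0.34 (ciliated), Scgb3a2 -0.09 (ciliated) and -0.02 (squamous), and Cyp2f2 0.02 (squamous). Under PBS between genotypes the same 3 settings gave 0.34, 0.78 and 0.38 for Scgb3a1, 0.02, 0.23 and 0.01 for Scgb3a2, 0.39, 1.02 and 0.52 for Muc5b, 0.5, 1.03 and 0.63 for Muc5ac, 0.64, 0.46 and 0.15 for Bpifb1 and 0.72, 0.95 and 0.59 for Reg3g. Under LPS between genotypes the squamous covariate gave -1.22 for Scgb3a1, -0.29 for Scgb3a2, -0.9 for Muc5b, -0.59 for Bpifa1, -0.33 for Bpifb1 and -0.75 for Reg3g, and Muc5ac was 0.22 (voom and voom treat) and 0.11 (cartilage).

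Leaving out each library in turn, members called ranged from 1 to 2 in WT, 1 to 5 in Adm+/- mice and 0 to 1 between genotypes under LPS, and were 0 in the other contrasts. All genes called ranged from 1443 to 3074, 3033 to 4503, 5 to 65 for the difference and 81 to 573 under LPS. Muc5ac ranged from -1.41 to 0.6 in WT, -0.63 to 0.55 in Adm+/- mice and -0.44 to 1.57 for the difference, where Scgb1a1 ranged from -0.11 to 0.52. Under PBS between genotypes the ranges were -0.74 to 0.05 for Scgb3a2, -0.28 to 0.11 for Cyp2f2, -0.97 to 0.37 for Muc5ac, -1.97 to 0.12 for Bpifb1, -2.95 to 0.18 for Reg3g, -0.33 to 0.29 for Scgb1a1, -4.17 to -1.01 for Bpifa1, -2.97 to -0.2 for Scgb3a1, -1.91 to -0.05 for Muc5b and -1.41 to -0.23 for Pigr. Under LPS between genotypes they were -0.64 to 0.99 for Scgb3a1, -0.05 to 0.4 for Scgb3a2, -0.49 to 1.03 for Muc5b, -0.87 to 1.05 for Muc5ac, -0.35 to 0.88 for Bpifa1 and -0.22 to 1.32 for Reg3g. In WT and in Adm+/- mice, Pigr ranged from 2.61 to 3.09 and from 4.46 to 5.64, Bpifb1 from 0.88 to 2.41 and from 2.42 to 4.03, Reg3g from 0.93 to 2.66 and from 2.29 to 5.2, Bpifa1 from 0.36 to 1.48 and from 2.22 to 5.41, Scgb1a1 from 0.22 to 0.85 and from 0.54 to 0.87, Scgb3a2 from 0.38 to 0.88 and from 0.74 to 1.52, and Cyp2f2 from 0.63 to 1.03 and from 0.14 to 0.45.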
